A study of Bos taurus with 32 samples.

Results

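ENSBTAG00000004924, ENSBTAG00000047073 and ENSBTAG00000011374 are 3 of the 27607 Ensembl gene IDs counted in these libraries. They were selected on measured levels: the level in the hypothalamus differed strongly between calves from embryos made in vitro and calves from embryos conceived in vivo, and differed less, or in the other direction, in the pituitary, testicle and adrenal. The deposited counts carry IDs without symbols, so no name or function is given for them, and the tissue labels could not be checked against named markers. The choice used the levels in both groups of calves and in all 4 tissues. The levels, the ratios between the groups and the differences between tissues are therefore given as a description, and no test on these genes is offered as support.

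RNA came from 8 male Holstein calves, with 1 poly(A)-selected library per tissue and calf, 32 in all. In the IVP group (calves 3208, 3209, 5833 and 5841) the embryos were produced in vitro. In the MOET group, the controls (calves 3213, 3217, 3218 and 5932), they were produced in vivo by ovarian superstimulation and artificial insemination. The embryos of both groups were carried by synchronized recipient cows, and the calves were kept in similar conditions until they were killed. IVP calves were then 98 or 103 days old, and MOET calves 102 to 104 days, apart from calf 3213, which was 144 days old.

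The hypothalamus is the part of the brain that sets the output of the pituitary through releasing and inhibiting hormones. The pituitary in turn sends hormones to the testicle, where they drive androgen synthesis and sperm cell development, and to the adrenal cortex, where they drive glucocorticoid synthesis. The 4 tissues are thus the successive stations of the reproductive and stress axes of 1 animal. None of the 3 genes is enriched in the hypothalamus by its level: ENSBTAG00000004924 is read at a high level in 3 of the tissues, ENSBTAG00000047073 mainly in the testicle and ENSBTAG00000011374 mainly in the adrenal. What is weighted to the hypothalamus is the difference between the groups.

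Levels are in CPM, counts relative to the library total, with the totals scaled by TMM factors within the tissue. Library totals were 20178727 to 22170502 counts in the hypothalamus and 17357283 to 23380330 over all tissues. The 100 most counted genes of the tissue took 25.5% to 29.1% of counts in IVP and 30.5% to 33.9% in MOET hypothalami, and 29.7% to 30.4% in IVP and 24.8% to 27.4% in MOET adrenals. The makeup of the libraries thus moved with the groups in these tissues, in opposite directions, and its part in the values below was not tested. All 3 genes passed the filter on low counts in every tissue.

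ENSBTAG00000004924 was lower in the hypothalamus of every IVP calf. Its level was 16.3 CPM in IVP calf 3208, 27.7 in 5841, 39.8 in 3209 and 41.6 in 5833. In MOET calves it was 138 CPM in 3218, 144 in 3213, 158 in 3217 and 159.9 in 5932. The groups lay far apart, with the lowest MOET calf 3.31-fold above the highest IVP calf. Among the 813 genes that were lower in all IVP hypothalami than in any MOET hypothalamus, 5.06% of 16066 genes tested, no other had so wide a gap. The means were 31.3 ± 11.8 CPM in IVP and 149.97 ± 10.8 CPM in MOET calves (SD, n = 4 each), a 4.79-fold difference. It rests on 372 to 1030 counts per IVP library and 2394 to 3390 per MOET library, so the ratio of summed counts, also 4.79, has a 95% counting interval of 4.59 to 4.99. In bulk tissue, fewer cells that hold an RNA and less of it per cell cannot be told apart.

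In the adrenal the same gene ran the other way. ENSBTAG00000004924 stood at 149.9 CPM in IVP calf 3208, 226 in 5841, 266 in 5833 and 462 in 3209. MOET adrenals held 105 CPM in 3217, 110.3 in 3213, 113 in 3218 and 128 in 5932. No IVP adrenal overlapped the MOET range, but the lowest IVP calf was only 1.17-fold above the highest MOET calf. The means of 276 ± 133 CPM in IVP and 114 ± 9.88 CPM in MOET adrenals (SD, n = 4 each) give a 2.42-fold higher level in IVP, and 1.88-fold without IVP calf 3209. In the adrenal 20.3% of 15437 genes tested were higher in all IVP than in all MOET calves. Genes lower in every IVP hypothalamus and higher in every IVP adrenal made up 174, or 1.19%, of the 14636 genes tested in both tissues.

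The testicle and pituitary showed no such separation for ENSBTAG00000004924. Testicular levels were 128, 136, 139 and 267 CPM in IVP calves 3208, 5833, 5841 and 3209, and 116, 189, 194 and 276 CPM in MOET calves 3217, 3213, 3218 and 5932. The groups overlapped over nearly their whole range, at means of 168 ± 66.1 and 194 ± 65.6 CPM (SD, n = 4 each). In the pituitary the gene was close to the limit of detection, with 2 to 26 counts per IVP library and 0 to 20 per MOET library. The library at 0, MOET calf 3213, allows a level of up to 3 counts. The pituitary means were 0.659 ± 0.410 CPM in IVP and 0.489 ± 0.387 CPM in MOET calves (SD, n = 4 each), and counting error alone is 25.6% of a mean IVP count and 30.9% of a mean MOET count.

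**Figure D1:**
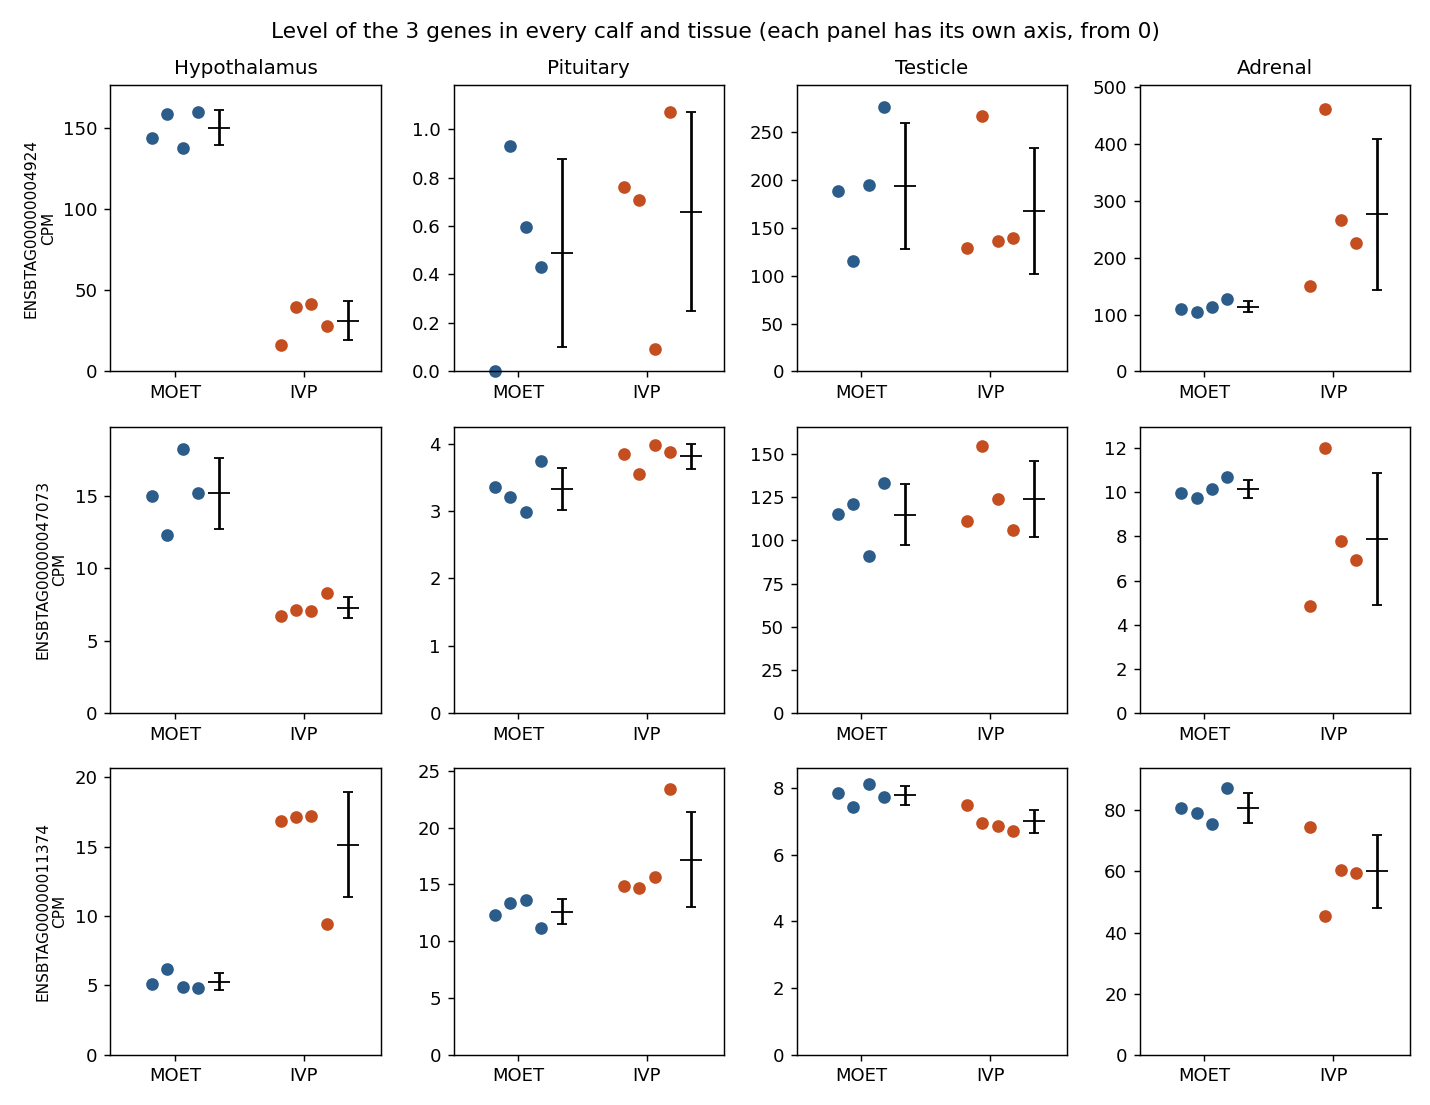
Level (CPM) of the 3 genes in the hypothalamus, pituitary, testicle and adrenal of 4 MOET calves (blue) and 4 IVP calves (orange); each point is 1 library, bars are mean ± SD (n = 4), and each panel has its own axis from 0. In the hypothalamus the groups are apart for all 3 genes, while in the testicle they overlap for each.

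ENSBTAG00000047073 was also lower in the hypothalamus of every IVP calf, with little spread among the IVP calves. It was read at 6.70 CPM in IVP calf 3208, 7.03 in 5833, 7.10 in 3209 and 8.31 in 5841. The MOET calves gave 12.3 CPM in 3217, 14.95 in 3213, 15.2 in 5932 and 18.2 in 3218. The groups did not overlap, and 1.48-fold separated the nearest calves, a gap that 16 of the 813 genes lower in this way reached, this one included. The means were 7.28 ± 0.707 CPM in IVP and 15.2 ± 2.44 CPM in MOET hypothalami (SD, n = 4 each), a 2.08-fold difference. With 151 to 183 counts per IVP and 253 to 322 per MOET library, the ratio of summed counts was 2.07 (95% counting interval 1.88 to 2.28). Between calves of the IVP group the coefficient of variation of 9.71% was close to the 7.78% that counting error alone gives at this depth. In the MOET group it was 16.1%, well above the 5.75% from counting error.

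Outside the hypothalamus the IVP and MOET levels of ENSBTAG00000047073 overlapped in each tissue. The testicle held by far the most, 106 to 155 CPM in IVP and 90.8 to 133 CPM in MOET calves, with means of 124 ± 21.9 and 115 ± 17.8 CPM (SD, n = 4 each). Pituitary levels were 3.55 to 3.98 CPM in IVP and 2.99 to 3.74 CPM in MOET calves. In the adrenal the 4 MOET calves were close together, at 9.75, 9.98, 10.1 and 10.7 CPM. The IVP adrenals were spread on both sides of them, at 4.84 CPM in 3208, 6.93 in 5841, 7.77 in 5833 and 11.99 in 3209. Means in the adrenal were 7.89 ± 3.003 CPM in IVP and 10.1 ± 0.396 CPM in MOET calves (SD, n = 4 each).

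ENSBTAG00000011374 was higher in the hypothalamus of every IVP calf. Its level was 9.45 CPM in IVP calf 5841, 16.8 in 3208 and 17.2 in both 3209 and 5833. MOET hypothalami held 4.81 CPM in 5932, 4.89 in 3218, 5.12 in 3213 and 6.16 in 3217. The groups did not overlap. IVP calf 5841 stood apart from the other 3 IVP calves, still 1.53-fold above the highest MOET calf, and 42 of the 790 genes that were higher in all IVP hypothalami (4.92% of the 16066 tested) had a gap at least as wide. The means were 15.1 ± 3.80 CPM in IVP and 5.25 ± 0.623 CPM in MOET calves (SD, n = 4 each), a 2.89-fold higher level in IVP. Counts were 208 to 425 per IVP and 85 to 127 per MOET library, and the ratio of summed counts was 2.89 with a 95% counting interval of 2.59 to 3.23.

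The other tissues differed less for ENSBTAG00000011374, and not all in the same direction. Pituitary levels were 14.7, 14.9, 15.6 and 23.4 CPM in IVP calves 3209, 3208, 5833 and 5841, and 11.1, 12.3, 13.4 and 13.6 CPM in MOET calves 5932, 3213, 3217 and 3218. The IVP calves were all above the MOET calves, 1.36-fold in the mean and by 1.08-fold at the nearest point, in a tissue where 11.5% of 15807 genes tested were higher in every IVP calf. Without IVP calf 5841 the ratio of means was 1.20. In the adrenal, where the gene was most abundant, levels were 45.4, 59.6, 60.6 and 74.5 CPM in IVP calves 3209, 5841, 5833 and 3208. MOET adrenals held 75.7, 79.3, 80.8 and 87.3 CPM in 3218, 3217, 3213 and 5932. The adrenal groups only just missed each other, 1.02-fold apart at the nearest point, with means of 60.0 ± 11.9 CPM in IVP and 80.8 ± 4.85 CPM in MOET calves (SD, n = 4 each).

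In that tissue 19.0% of the genes tested were lower in every IVP calf, and 1.13% of the genes tested in both tissues were higher in every IVP hypothalamus and lower in every IVP adrenal. Testicular levels of ENSBTAG00000011374 were 6.71 to 7.50 CPM in IVP and 7.43 to 8.11 CPM in MOET calves. Those ranges overlapped through IVP calf 3208 and MOET calf 3217.

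Taken by tissue, the groups were apart for 3 of 3 genes in the hypothalamus, where 9.98% of all genes tested were apart in either direction. They were apart for 2 of 3 genes in the adrenal (39.3% of all genes tested), for 1 of 3 in the pituitary (22.5%) and for 0 of 3 in the testicle (7.30%). The hypothalamic count is the choice of genes itself. Relative to the MOET mean of the hypothalamus, IVP calves lay at 0.109 to 0.277 for ENSBTAG00000004924, at 0.442 to 0.548 for ENSBTAG00000047073 and at 1.80 to 3.27 for ENSBTAG00000011374, while MOET calves lay between 0.809 and 1.20 for all 3. By the size of the log2 ratio in either direction, 76 of the 16066 genes tested in the hypothalamus were as far from 0 as ENSBTAG00000004924, itself included. For ENSBTAG00000011374 there were 262 such genes and for ENSBTAG00000047073 there were 780. The 144-day-old MOET calf 3213 lay inside the range of the other MOET calves in the hypothalamus for each of the 3 genes.

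**Figure D2:**
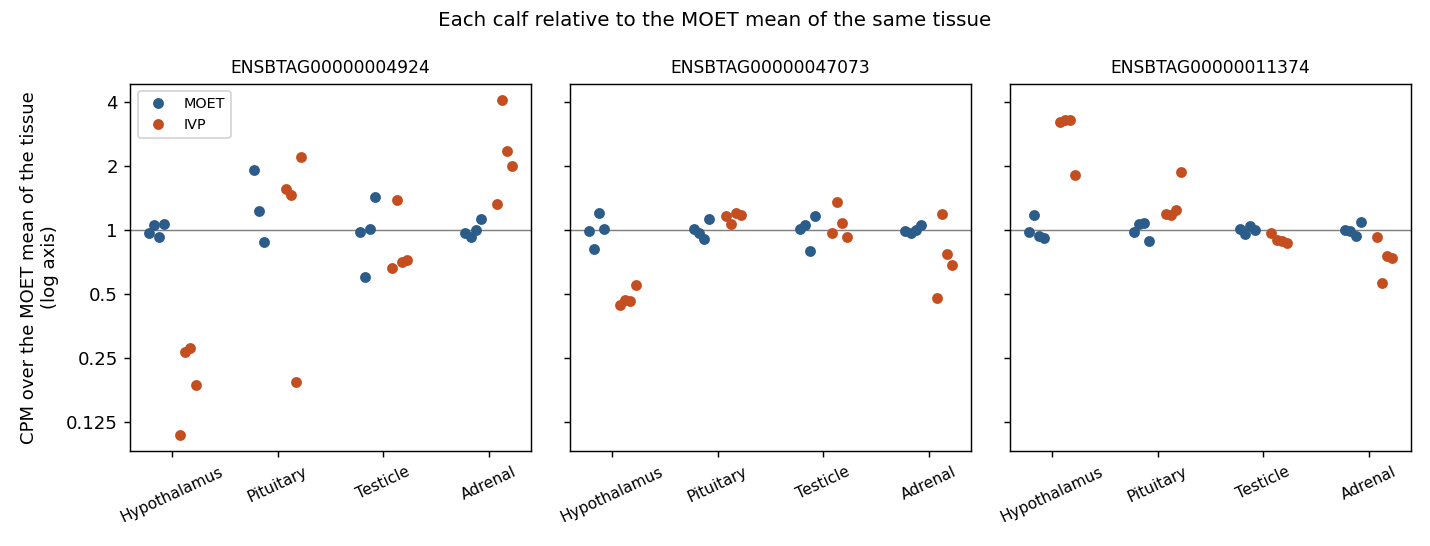
CPM of each calf divided by the MOET mean of the same tissue (log axis), by tissue, for MOET calves (blue) and IVP calves (orange); the grey line marks the MOET mean, and the pituitary library of MOET calf 3213, with 0 counts of ENSBTAG00000004924, cannot be drawn. IVP hypothalami lie at 0.109 to 0.277, 0.442 to 0.548 and 1.80 to 3.27 of the MOET mean for the genes from left to right.

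Because each calf gave all 4 tissues, the hypothalamus can be set against another tissue of the same animal. For ENSBTAG00000004924 the hypothalamus held 1.22 to 1.51 times the adrenal level in each MOET calf. In IVP calves the adrenal held the higher level, 11.6-fold in 3209, 9.21-fold in 3208, 8.16-fold in 5841 and 6.40-fold in 5833. Against the testicle, MOET hypothalami were at 0.579 to 1.37 times the testicular level and IVP hypothalami at 0.127 to 0.306 times. Against the pituitary the ratios overlapped, at 21.4 to 444 in IVP calves and 169.97 to 372 in the 3 MOET calves with a pituitary count. The groups were apart in the adrenal and testicular ratios, and so they were in the hypothalamus to adrenal ratio of 47.0% of 14636 genes and in the hypothalamus to testicle ratio of 7.19% of 14977 genes.

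For ENSBTAG00000011374 the within-calf order of hypothalamus and testicle turned over between the groups. The hypothalamus held 0.603 to 0.83 times the testicular level in MOET calves and 1.41 to 2.50 times in IVP calves. Its adrenal level was 12.9-fold to 18.1-fold above the hypothalamic one in MOET calves and 2.64-fold to 6.31-fold above it in IVP calves. The groups were apart in both ratios, as they were for 7.19% of 14977 genes against the testicle and 47.0% of 14636 genes against the adrenal. Against the pituitary the ratios overlapped only through IVP calf 5841, at 0.403. IVP calves 5833, 3208 and 3209 lay at 1.10, 1.13 and 1.17, and the MOET calves at 0.360 to 0.461. For ENSBTAG00000047073 the hypothalamus held 3.82 to 6.11 times the pituitary level in MOET calves and 1.74 to 2.14 times in IVP calves. That pituitary ratio separated the groups as it did for 9.05% of 15012 genes. The testicle ratio was also apart, at 0.102 to 0.201 in MOET and 0.0458 to 0.0783 in IVP calves, as it was for 7.19% of 14977 genes. The adrenal ratios of 1.26 to 1.80 in MOET and 0.592 to 1.38 in IVP calves overlapped.

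**Figure D3:**
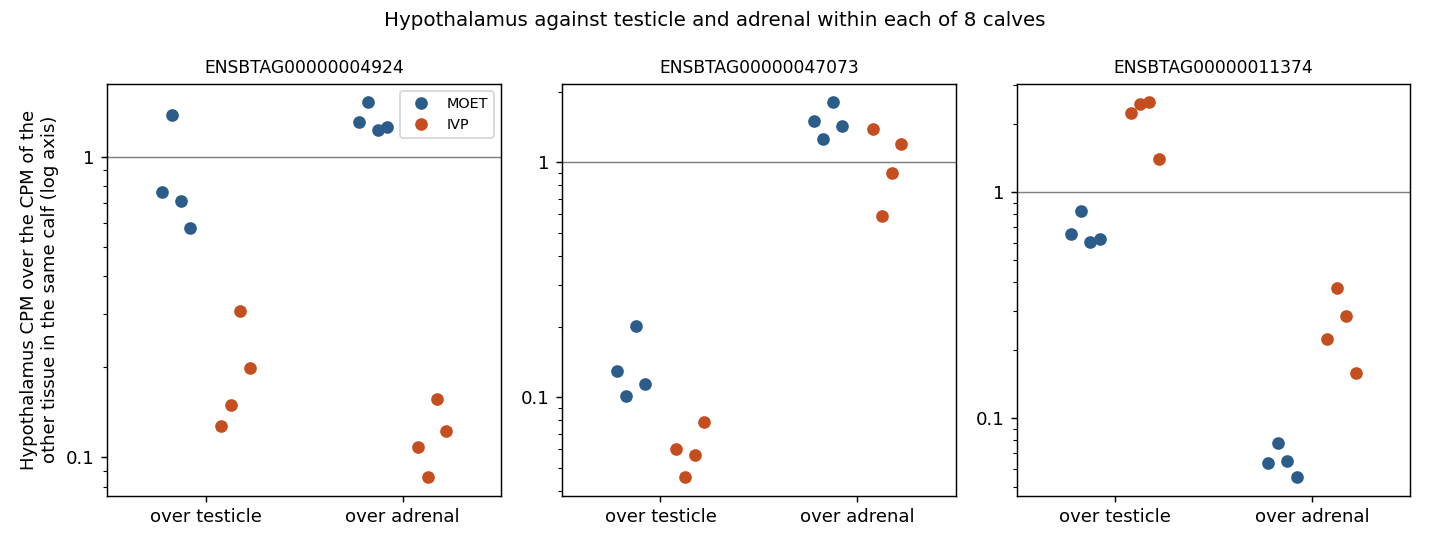
Hypothalamic CPM divided by testicular or adrenal CPM of the same calf (log axis, grey line at 1) for MOET calves (blue) and IVP calves (orange). ENSBTAG00000004924 lies above 1 against the adrenal in all MOET calves and at 0.0861 to 0.156 in IVP calves, and ENSBTAG00000011374 moves from below to above 1 against the testicle.

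The order of the tissues by mean CPM was not the same in both groups for any of the 3 genes. For ENSBTAG00000047073 the change lay between tissues that overlapped in IVP calves, and its direction there depended on the scaling. In MOET calves ENSBTAG00000004924 was highest by mean in the testicle, followed by the hypothalamus, the adrenal and, far below, the pituitary. The hypothalamic range of 138 to 159.9 CPM lay within the testicular one of 116 to 276 CPM and above the adrenal one of 105 to 128 CPM. In IVP calves the adrenal came first, with a range that overlapped the testicular one, and the hypothalamic range of 16.3 to 41.6 CPM lay below both.

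ENSBTAG00000047073 ran from testicle to hypothalamus to adrenal to pituitary in MOET calves, with no overlap between neighbours. In IVP calves the adrenal mean was the higher, but the tissues could not be told apart by range, since the hypothalamic range of 6.70 to 8.31 CPM lay inside the adrenal one of 4.84 to 11.99 CPM. ENSBTAG00000011374 ran from adrenal to pituitary to testicle to hypothalamus in MOET calves, again with no overlap between neighbours, so the hypothalamus was its lowest tissue. In IVP calves the testicle was lowest, and the hypothalamic range of 9.45 to 17.2 CPM overlapped the pituitary one of 14.7 to 23.4 CPM.

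In an edgeR fit across all genes within each group, the hypothalamus passed an adjusted p of 0.05 against the other tissue in 7 of 9 comparisons of a gene and a tissue in MOET calves and in 7 of 9 in IVP calves. Of all 17597 genes tested in MOET calves, 74.4% passed against the pituitary, 78.3% against the testicle and 72.9% against the adrenal. Of 17593 in IVP calves, 63.7%, 70.5% and 71.9% passed. The levels compared are those the genes were selected on, so nothing is read from these counts.

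Calves of 1 group differed among themselves, and in the adrenal the same 2 IVP calves were outermost for all 3 genes. IVP calf 3208 had the lowest and 3209 the highest adrenal level of both ENSBTAG00000004924 and ENSBTAG00000047073, with 5841 and 5833 between them in that order. For ENSBTAG00000011374 these 2 calves changed places, with 3209 the lowest and 3208 the highest. Calves 5841 and 5833 kept their order, so this was not the exact reverse. The order of ENSBTAG00000004924 or its exact reverse was found for 45.2% of all genes tested in IVP adrenals, so that it was common among genes in these libraries. That of ENSBTAG00000011374 or its exact reverse was found for 18.5%. In the IVP hypothalamus the 3 genes had 3 different orders of the calves, and the order of ENSBTAG00000004924 or its reverse held for 3.55% of genes tested. Calf 3208 had the lowest ENSBTAG00000004924 level of the IVP calves in the hypothalamus, testicle and adrenal, but not in the pituitary.

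**Figure D4:**
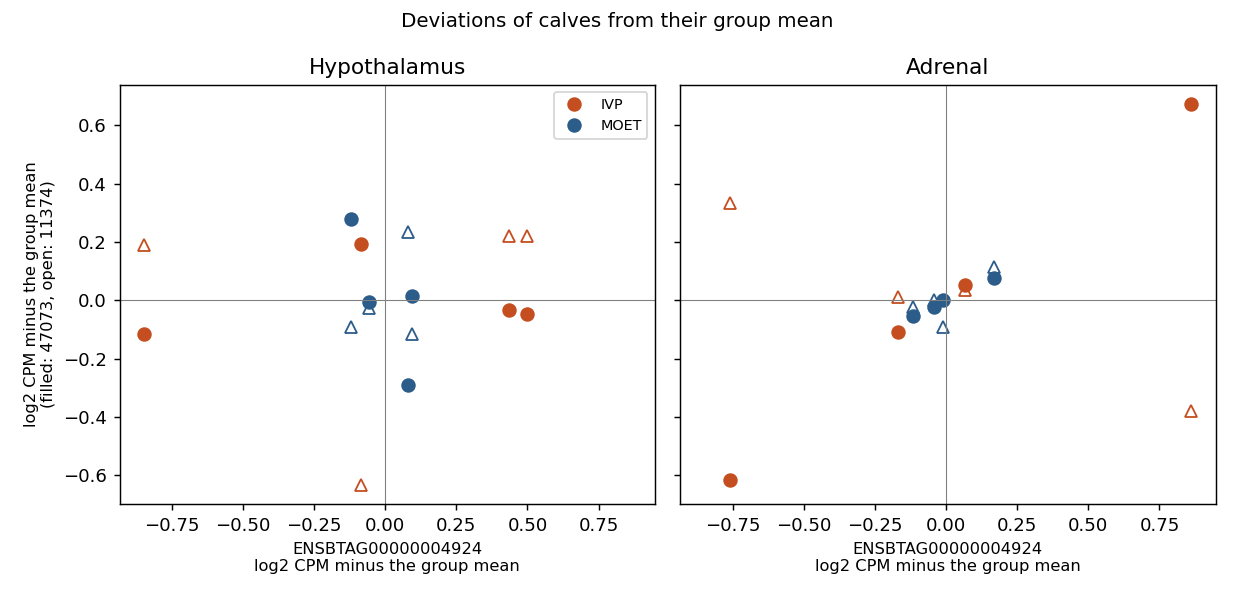
Deviation of each calf from its group mean (log2 CPM) for ENSBTAG00000047073 (filled circles) and ENSBTAG00000011374 (open triangles) against that for ENSBTAG00000004924, in the hypothalamus and adrenal of IVP (orange) and MOET (blue) calves. In the adrenal IVP calf 3209 lies at 0.86 and calf 3208 at -0.76 on the horizontal axis, with the circles rising and the triangles falling between them, while the hypothalamic points show no such line.

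RNA of another tissue in a hypothalamic sample was gauged by genes enriched in that tissue, 101 for the pituitary and 154 for the testicle. Pituitary-enriched genes took 24.0% to 38.1% of counts in pituitary libraries and 0.0403% to 0.455% in hypothalamic ones, with IVP calf 5833 at 0.455% and the other 7 at up to 0.176%. In the IVP calves the share was 0.0639% in 5841, 0.0708% in 3208, 0.173% in 3209 and 0.455% in 5833. The hypothalamic level of ENSBTAG00000011374 in these calves was 9.45, 16.8, 17.2 and 17.2 CPM. Calves 3209 and 5833 were thus level although their shares differed. This order of the IVP calves was found for 2.72% of the 16066 genes tested in the hypothalamus, and nothing is read from it. The MOET hypothalami had shares of 0.0403% to 0.176% and 4.81 to 6.16 CPM of ENSBTAG00000011374, and its level did not follow the order of the shares. Among them calf 3217 had the lowest share, 0.0403%, and the highest level, 6.16 CPM. Calf 5932 had the highest share, 0.176%, and the lowest level, 4.81 CPM. For ENSBTAG00000004924 the pituitary level was under 1.1 CPM in every library. Testicle-enriched genes, ENSBTAG00000047073 among them, took 0.145% to 0.160% of counts in IVP and 0.125% to 0.140% in MOET hypothalami. The part of RNA from another tissue in the levels of the 3 genes was not tested.

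The genes most like each of the 3 over all libraries had IVP to MOET ratios in the hypothalamus closer to 1 than those of the 3 genes. The selection on that ratio made this likely. By the size of the log2 ratio, 99.5%, 95.1% and 98.4% of the 16066 genes tested were closer to 1 than ENSBTAG00000004924, ENSBTAG00000047073 and ENSBTAG00000011374. Nothing is therefore read from the closer ratios. Over all 32 libraries and 14922 genes, the highest Pearson correlation of log2 CPM with ENSBTAG00000004924 was that of ENSBTAG00000009026 (r = 0.97), which held 94.2 CPM in IVP and 113 CPM in MOET hypothalami, a ratio of 0.832 where ENSBTAG00000004924 had 0.209. ENSBTAG00000004706 was most like ENSBTAG00000047073 (r = 0.98), with a hypothalamic IVP to MOET ratio of 0.879 against 0.480. ENSBTAG00000009719 was most like ENSBTAG00000011374 (r = 0.97), with a ratio of 1.52 against 2.89. The next gene in each case had an r of 0.96, 0.97 and 0.95 and a ratio of 0.822, 0.827 and 2.29. The IVP calves were uneven for the gene with the ratio of 2.29, at 78.8 ± 53.8 CPM against 34.4 ± 2.36 CPM in MOET hypothalami (mean ± SD). These correlations describe libraries that share calves, and most of their spread is between tissues. After removal of the group means, over the 8 hypothalamic libraries alone, 61, 53 and 54 of 14922 genes had an r over 0.9 with the 3 genes in the order above. The highest was r = 0.99 for each. With 8 libraries and so many genes, correlations of this size can arise by chance. The number expected by chance was not worked out, and nothing is read from these counts.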

How the data were processed

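The protocols in the labels describe unstranded libraries of poly(A) RNA, sequenced from both ends with 100-base reads on DNBSEQ, with SOAPnuke as read filter. STAR 2.7, HTSeq and bosTau9 are named per the submitters' processing notes; annotation release and counting mode: not given in the sources used here. Deposited by the authors were whole read counts for each Ensembl gene ID, in 1 table with 0 further columns. Without strand, overlapping genes cannot be separated, and counts of near-identical genes are uncertain. No ID matched the reference table (0 matches), so the planned comparisons of neighbouring genes, gene lists and named markers were not run.

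Within each tissue, genes passed filterByExpr (minimum count 10, minimum total 15) and CPM were scaled with TMM. Contrasts between tissues within a group used glmQLFTest of edgeR after a robust glmQLFit, with TMM over the 16 libraries of the group and p-values adjusted over all genes at 0.05. On that scale log2 fold changes differ from those of the printed CPM by -0.04 to 0.16. Correlations used log2 CPM with a prior count of 2. Tissue-enriched genes had at least 10 CPM and 8 times the mean of each other tissue; they were chosen on these libraries. Counting intervals are exact, at 95%, and cover counting error only, with a floor of 3 counts for a count of 0. Precision is set by the totals and by 4 calves per group.

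The members, lists and tests were chosen with earlier results of these data known. Named genes are the 3 members and those most correlated with them, of which 1 per member is printed by ID. Equal animal numbers mark tissues of the same calf, which pairs them; over 14025 genes the correlation of a calf's deviations between 2 tissues ran from -0.67 to 0.83, above 0.1 in 27 of 48 pairs. Replicates are separate animals. Alternatives tried were the Wald test and the size factors of DESeq2, no low-count filter, the calf as a block, library totals, medians and each calf left out. Software was R 4.3.3, edgeR 4.0.16, DESeq2 1.42.0, Python 3.11.15, scipy 1.17.1 and matplotlib 3.10.9.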

Additional observations from a re-analysis of the deposited data

Results flagged for a closer look

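In 3 of 24 groups of 4 calves 1 calf lay far from the others, where chance alone does this in about 1 of 20 independent groups. These groups share the same 8 calves and are not independent, so no excess is read from the count. IVP calf 3209 held 267 CPM of ENSBTAG00000004924 in the testicle, where the other 3 IVP calves held 128 to 139. IVP calf 5841 held 9.45 CPM of ENSBTAG00000011374 in the hypothalamus, below the other 3 at 16.8 to 17.2, and 23.4 CPM in the pituitary, above the other 3 at 14.7 to 15.6.

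In 3 cases every IVP calf lay on one side of the MOET calves in 1 tissue and on the other side in another. The log2 ratio of IVP to MOET for ENSBTAG00000004924 was lower by 3.54 in the hypothalamus than in the adrenal (a difference of -3.54). For ENSBTAG00000011374 it was higher in the hypothalamus than in the adrenal by 1.96, and higher in the pituitary than in the adrenal by 0.874. These differences were not tested, since the genes were chosen on them. Of 14636 genes tested in hypothalamus and adrenal, 1.19% were placed like ENSBTAG00000004924 and 1.13% like ENSBTAG00000011374. For pituitary and adrenal no joint share is given. Taken singly, 11.5% of genes were higher in every IVP pituitary and 19.0% lower in every IVP adrenal. The gaps of ENSBTAG00000011374 there were 1.08-fold and 1.02-fold.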

How the results depend on the processing

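Of the 9 tissue comparisons in MOET calves, 7 passed with the replicate block (the calf, which pairs the tissues), and without the low-count filter, as in the report, 8 passed with DESeq2 size factors and in the DESeq2 Wald test, and 7 to 8 without 1 calf. In IVP calves 7 passed under each of these alternatives, and the block changed no call. The log2 fold change of ENSBTAG00000047073 between IVP hypothalamus and adrenal, -0.004, turned to 0.0247 with DESeq2 size factors, 0.0246 in the DESeq2 Wald test, 0.0428 without the filter and 0.0338 with the block, and ran from -0.14 to 0.304 without 1 calf. That of ENSBTAG00000011374 between IVP hypothalamus and pituitary ran from -0.357 to 0.0925 without 1 calf. The cause was not tested.

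The hypothalamic log2 ratios of IVP to MOET kept their sign under each alternative. The genes were chosen on this ratio and their groups do not overlap. Leaving out a calf or taking medians therefore could not turn the sign, and nothing is read from its being kept. With 1 calf left out they ran from -2.43 to -2.04 for ENSBTAG00000004924, from -1.15 to -0.96 for ENSBTAG00000047073 and from 1.46 to 1.70 for ENSBTAG00000011374. In the testicle, ENSBTAG00000047073 went from 0.11 to -0.01 by library totals without factors (-0.0134) and by the ratio of medians (-0.00697), and ran from -0.0161 to 0.186 with 1 calf left out. ENSBTAG00000004924 ran there from -0.524 to 0.0124, and ENSBTAG00000011374 went from -0.15 to -0.26 by library totals. Without TMM factors hypothalamic log2 ratios had a median of 0.19 over all genes, and adrenal ones of -0.19. TMM over all 32 libraries, added after the data were seen, moved no ratio by more than the spread between calves. Depth limits the values with few counts: counting error was above the variation between calves for ENSBTAG00000047073 in the pituitary (10.8% against 4.90% in IVP, 11.9% against 9.49% in MOET) and ENSBTAG00000011374 in the testicle (8.23% against 4.90%, 7.68% against 3.61%), and large for ENSBTAG00000004924 in the pituitary.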
